A study of Mus musculus with 4 samples.

Results

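The genes described here are 6 transcription factor genes that pattern the dorsal and ventral optic vesicle, taken by symbol from the deposited table of 55426 rows. They are Tbx2, Tbx3 and Tbx5 on the dorsal side and Vax1, Vax2 and Pax2 on the ventral side, and each had 1 row in the table. RNA was measured by poly(A)-selected RNA sequencing of mouse retinal organoids, aggregates of pluripotent stem cells steered in culture towards retina, on day 6. The 4 libraries all came from the Rx:GFP Mettl3 KO line, in which Mettl3, the gene for the catalytic subunit of the RNA N6-methyladenosine (m6A) writer, is knocked out, and which carries a Dox-inducible, HA-tagged METTL3. All 4 also grew in medium with AGN at 0.1 µM. They form 2 groups of 2: untreated, without Dox, and Dox, with 2 µg/ml doxycycline for 6 days. The titles call both groups EV, a term the labels do not explain, and no line without the inducible copy was used here, so an effect of doxycycline itself cannot be told apart from one of METTL3.

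In the early eye, the optic vesicle is divided along a dorsal to ventral axis by signals from its surroundings. Bone morphogenetic proteins (BMPs), chiefly Bmp4, act dorsally and maintain the T-box factors, while Sonic hedgehog (Shh) from the midline acts ventrally and maintains the Vax homeobox factors and Pax2, which mark ventral retina and optic stalk. The opposing factors restrict one another, so that a mature optic cup holds separate dorsal and ventral territories. The comparison here asks whether these factors differ between organoids with and without Dox at an early stage.

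All 6 genes were listed at 0 to 0.29 FPKM without Dox and at 1.52 to 78.13 FPKM with it. FPKM is a level per length of transcript and per depth of the library. Genes of the dorsal and of the ventral side were higher together: no member was lower with Dox, and for each of the 6 the 2 Dox libraries exceeded the 2 untreated ones, as they did in 26.5% of all tested genes. In bulk RNA, a larger number of cells that express a gene and more RNA per cell cannot be told apart, and neither can cells of dorsal and ventral type side by side and cells that hold both sets of factors.

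The sequences that bear on these genes are their promoters and, because the line combines a Mettl3 knockout with a Dox-inducible METTL3, copies of the m6A consensus in their transcripts. RefSeq promoter windows (GRCm38.p6) were matched for 2 of the 6 members, Vax1 and Pax2. They are shown because both ventral genes were higher with Dox, as the 250 bases that precede an annotated start, in lower case, with any of 4 searched motifs in capitals. The motifs, searched on both strands, were TAATTA (a homeodomain core), AGGTGTGA (a T-box site), GTCTAGAC (a SMAD-binding palindrome) and GGCGCC (a GC-rich SMAD site of the BMP pathway). They do not overlap one another in these windows, and they were chosen after the sequences had been seen.
Vax1 (chr19:59170398-59170647, minus strand): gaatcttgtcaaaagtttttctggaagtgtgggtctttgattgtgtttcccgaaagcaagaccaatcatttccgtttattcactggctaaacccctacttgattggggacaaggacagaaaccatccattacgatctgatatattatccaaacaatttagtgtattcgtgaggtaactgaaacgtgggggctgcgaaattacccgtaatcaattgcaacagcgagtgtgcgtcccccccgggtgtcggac
Pax2, farthest start (chr19:44746351-44746600, plus strand): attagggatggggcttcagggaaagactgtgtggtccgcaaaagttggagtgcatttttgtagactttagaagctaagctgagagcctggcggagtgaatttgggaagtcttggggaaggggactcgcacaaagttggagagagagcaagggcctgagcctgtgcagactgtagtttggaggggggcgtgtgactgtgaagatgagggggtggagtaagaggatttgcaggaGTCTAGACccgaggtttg
Pax2, next start (chr19:44755502-44755751, plus strand): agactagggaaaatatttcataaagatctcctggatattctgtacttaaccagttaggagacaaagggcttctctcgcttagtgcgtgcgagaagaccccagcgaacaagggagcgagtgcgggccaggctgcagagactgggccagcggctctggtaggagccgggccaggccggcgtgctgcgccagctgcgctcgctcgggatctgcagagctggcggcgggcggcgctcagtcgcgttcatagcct

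The Vax1 window and the next Pax2 window held none of the 4 motifs. The window at the farthest Pax2 start held GTCTAGAC, whose first base lies 18 bases before the start. The remaining Pax2 window, which overlaps an annotated exon and is not printed, held GGCGCC 2 times. Over 32817 RefSeq promoter windows of 300 bases, TAATTA was present in 5.3%, AGGTGTGA in 1.27%, GTCTAGAC in 0.213% and GGCGCC in 11.9%. A match describes the letters only, and no binding was measured. The GC content of the printed windows was 44.8% for Vax1, 52.8% for the farthest Pax2 start and 60.8% for the next.

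A frequent form of the m6A consensus, read here as the letters GGACT in DNA, was counted in the longest annotated coding transcript of each member (GENCODE M21, GRCm38). Tbx2 had 0 copies in 3626 bases, Tbx3 had 7 in 4982, Tbx5 had 1 in 3942, Vax1 had 5 in 1044, Vax2 had 2 in 1242 and Pax2 had 4 in 4358. Per kilobase this is 0 for Tbx2, 0.254 for Tbx5, 0.918 for Pax2, 1.41 for Tbx3, 1.61 for Vax2 and 4.79 for Vax1. The median over 11625 tested protein-coding genes was 1.05 per kilobase, with quartiles at 0.636 and 1.51, so the members lie on both sides of it. The Vax1 model ends at its stop codon and holds no 3′ untranslated region. No m6A was measured in these files. The copy nearest the stop codon is shown for the 5 members that have one, with GGACT in capitals, because m6A is known to gather around stop codons.
Tbx3 (chr5:119682910-119682930, plus strand, coding): gtggctgtGGACTcggggtcg
Tbx5 (chr5:119841799-119841819, plus strand, coding): gtgcacccGGACTccccagca
Vax1 (chr19:59166187-59166201, minus strand, coding, across the stop codon): aaagcgctGGACTga
Vax2 (chr6:83738041-83738061, plus strand, 3′ untranslated): gcccccgtGGACTatactgag
Pax2 (chr19:44836438-44836458, plus strand, 3′ untranslated): taaggaaaGGACTttgtgctg

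These copies began 172 bases before the stop codon in Tbx3, 1138 before it in Tbx5 and 4 before it in Vax1. They began 68 bases after the first base of the stop codon in Vax2 and 421 after it in Pax2.

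Values below are FPKM as deposited, in the order untreated replicate 1, untreated replicate 2, Dox replicate 1 and Dox replicate 2. Tests were made with limma on log2(FPKM + 1) over the 13931 genes whose mean over the 4 libraries reached 1 FPKM, with Benjamini-Hochberg adjustment over all of them. Over all tested genes 4.44% were higher and 4.87% lower with Dox at an adjusted p below 0.05. With 2 libraries per group an exact two-sided permutation test of a single gene cannot give a p below 0.333, so limma's p-values depend on the variance it borrows from other genes. Nothing says that the replicates were separate cultures, so p-values may measure technical spread only.

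Among the dorsal factors, Tbx2 (ENSMUSG00000000093, chromosome 11, 85832551 to 85841948, plus strand, 7 exons) is a T-box repressor needed for growth and closure of the optic cup. It was listed at 0.12, 0.2, 59.09 and 78.13 FPKM. The untreated values correspond to about 13.2 and 23.7 fragments, and both Dox libraries lay far above them. Its mean was 0.16 ± 0.0566 FPKM without Dox and 68.6 ± 13.5 FPKM with it (SD, n = 2 each), a ratio of means of 429. limma put the log2 fold change at 5.89 with an SE of 0.151 (adjusted p = 6.96e-05), the fourth highest of all tested genes.

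Tbx3 (ENSMUSG00000018604, chromosome 5, 119670669 to 119684724, plus strand) is the closest relative of Tbx2 and is also expressed in dorsal retina, hypothalamus and pluripotent cells. It was listed at 0.22, 0.19, 29.18 and 40.81 FPKM. The groups were far apart, with a ratio of means of 171. The mean went from 0.205 ± 0.0212 to 35.0 ± 8.22 FPKM (SD, n = 2 each), and limma gave a log2 difference of 4.88 with an SE of 0.171 (adjusted p = 1.16e-04). Its antisense transcript Tbx3os1, annotated on the opposite strand with 115 bases of shared exon out of 6624 bases of Tbx3 exon, was listed at 0, 0, 7.49 and 13.08 FPKM. Unlike Tbx3, Tbx3os1 was at 0 in both untreated libraries, and with Dox it was at least 172-fold higher against a floor of 3 fragments per library. Whether counting used strand is not given in the sources used here, so reads over the shared bases may be credited to either gene.

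Tbx5 (ENSMUSG00000018263, chromosome 5, 119832668 to 119885219, plus strand) is restricted to dorsal retina in the eye and is otherwise known from heart and forelimb. It was listed at 0, 0, 7.33 and 9.8 FPKM. It is the only member at 0 in both untreated libraries, and against a floor of 3 fragments per library (0.0249 FPKM) the Dox mean of 8.57 ± 1.75 FPKM (SD, n = 2) was at least 344-fold higher. The log2 fold change on the scale with a pseudocount was 3.25 (SE 0.162, adjusted p = 3.18e-04 in limma), which is no measure of that bound.

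Among the ventral factors, Pax2 (ENSMUSG00000004231, chromosome 19, 44756045 to 44837871, plus strand) marks the optic stalk and the lips of the optic fissure and is also a gene of the midbrain-hindbrain boundary, ear and kidney. It was listed at 0.22, 0.2, 20.56 and 30.37 FPKM. It was the highest of the ventral factors with Dox, and its Dox libraries overlapped those of Tbx3 in level. The mean went from 0.21 ± 0.0141 to 25.5 ± 6.94 FPKM (SD, n = 2 each), a ratio of 121, and the log2 difference was 4.43 with an SE of 0.191 (limma, adjusted p = 1.86e-04).

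Vax2 (ENSMUSG00000034777, chromosome 6, 83711264 to 83738313, plus strand, 3 exons) is a homeobox gene of ventral retina. It was listed at 0.12, 0.29, 7.99 and 8.14 FPKM. The Dox libraries were nearly equal, while the untreated values rest on about 3.9 and 10.2 fragments. The mean went from 0.205 ± 0.12 to 8.07 ± 0.106 FPKM (SD, n = 2 each), and the log2 difference was 2.91 with an SE of 0.13 (limma, adjusted p = 2.07e-04). The antisense gene Vax2os, which shares no exon base with Vax2, was listed at 0, 0.02, 0.35 and 0.3 FPKM.

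Vax1 (ENSMUSG00000006270, chromosome 19, 59166187 to 59170056, minus strand) is the paralog of Vax2 in optic stalk, ventral forebrain and hypothalamus. It was listed at 0.08, 0, 1.52 and 2.22 FPKM. It was the lowest member with Dox, and its mean of 0.955 FPKM over the 4 libraries fell below the filter, so the main comparison did not test it. In the fit without a filter its log2 fold change was 1.45 (SE 0.154, adjusted p = 0.0473 in limma), where 1.22% of 27532 genes were higher. From about 2 fragments without Dox and 97 with it, the ratio was 50.5, with an exact 95% interval of 13.6 to 423 that covers counting error only.

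**Figure D1:**
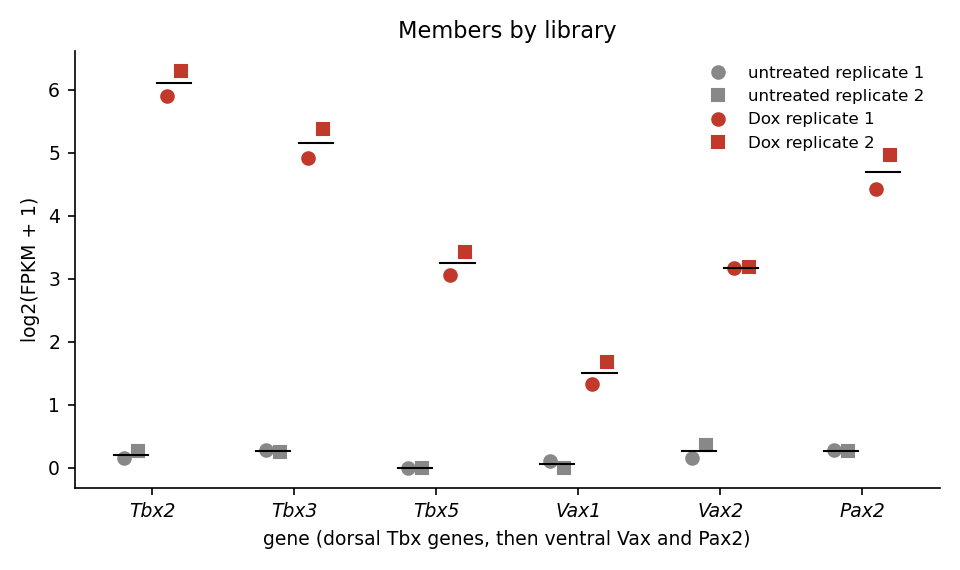
Level of each member in each library, as log2(FPKM + 1); grey symbols are untreated and red symbols Dox libraries, circles are replicate 1 and squares replicate 2, and lines are group means. Every red symbol lies above every grey symbol of the same gene, from Vax1 at 1.52 and 2.22 FPKM to Tbx2 at 59.09 and 78.13 FPKM.

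Of the 6 members, 5 passed the filter and the same 5 were higher at the adjusted threshold. This count supports nothing by itself, since a gene silent without Dox could pass the filter only by its Dox libraries and so had to differ. The ranks of the log2 fold changes among the 13931 tested genes, from the highest, were 4 for Tbx2, 8 for Tbx3, 11 for Pax2, 28 for Tbx5 and 40 for Vax2.

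**Figure D2:**
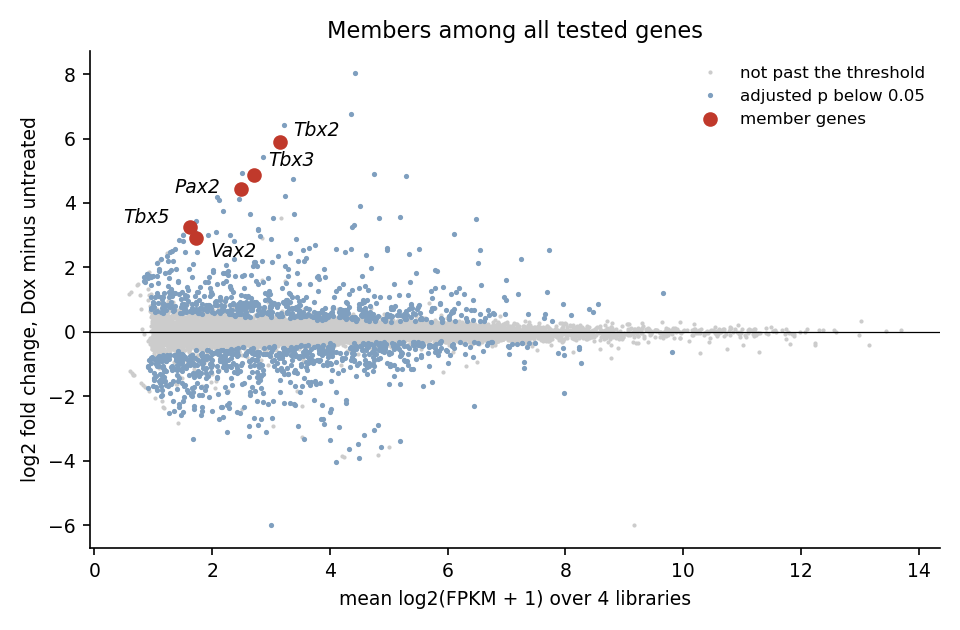
Log2 fold change (Dox minus untreated) against the mean log2(FPKM + 1) over the 4 libraries for the 13931 tested genes, grey where not past the threshold and blue where the adjusted p was below 0.05; red points are the 5 tested members. The members lie along the upper left edge, where genes without signal in untreated libraries fall, with Tbx2 at 5.89 and Vax2 at 2.91.

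With Dox the levels were ordered Tbx2, Tbx3, Pax2, Tbx5, Vax2 and Vax1. Tbx2 stood above Tbx3 in each Dox library, with 59.09 against 29.18 FPKM and 78.13 against 40.81 FPKM. Tbx3 also stood above Pax2 within each Dox library, with 29.18 against 20.56 FPKM and 40.81 against 30.37 FPKM, although the ranges of the 2 genes overlap. Tbx5 and Vax2 changed order between the libraries, with 7.33 against 7.99 FPKM and 9.8 against 8.14 FPKM, so these neighbours cannot be ordered beyond the spread of their libraries. The summed level of the 3 Tbx genes was 95.6 and 128.7 FPKM in Dox replicates 1 and 2, and that of Vax1, Vax2 and Pax2 was 30.07 and 40.73 FPKM. The ratio of these sums, dorsal over ventral, was 3.18 and 3.16, nearly equal in the 2 libraries although the sums differed. Without Dox the sums were 0.34 and 0.39 FPKM for the Tbx genes and 0.42 and 0.49 FPKM for the others.

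The Dox replicates differed from each other for most members. Dox replicate 2 exceeded Dox replicate 1 by a factor of 1.32 for Tbx2, 1.40 for Tbx3, 1.34 for Tbx5, 1.46 for Vax1 and 1.48 for Pax2, but only 1.02 for Vax2. Over 13854 tested genes above 0 in both libraries the median of this ratio was 1.02, and 5% to 95% of them lay between 0.75 and 1.30. Vax2 therefore sat at the median of these genes, while Tbx2, Tbx3, Tbx5 and Pax2 lay above their 95th percentile. Vax1, which is not among the tested genes, also exceeded that percentile. Its ratio rests on only about 38.9 and 58.4 fragments, so it is imprecise. Among eye-field genes the ratio was 1.13 for Rax, 1.17 for Six6 and 1.31 for Six3, and it was 1.08 for the eGFP reporter. Per unit of Rax, Tbx2 was at 0.294 in Dox replicate 1 and 0.343 in Dox replicate 2, Pax2 at 0.102 and 0.133, and Vax2 at 0.0397 and 0.0357.

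**Figure D3:**
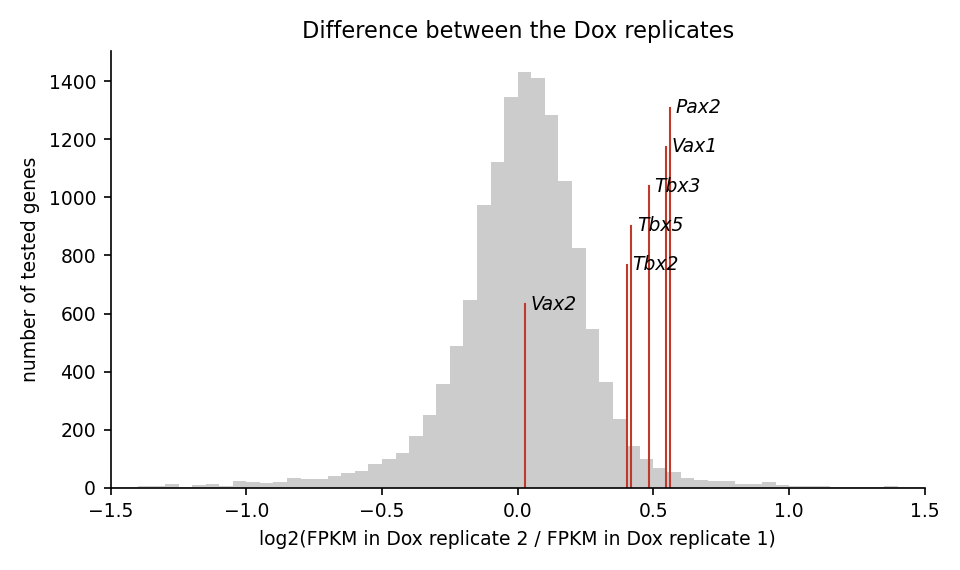
Histogram of the log2 ratio of FPKM in Dox replicate 2 to Dox replicate 1 over tested genes (number of genes on the vertical axis), with a red line at each member; line heights only separate the labels. Vax2 lies near the centre at a ratio of 1.02, and the other members lie to the right at 1.32 to 1.48.

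The labels were checked against these libraries. Mettl3 was listed at 40.33 and 37.98 FPKM without Dox and at 45.2 and 46.37 FPKM with it, which did not pass the threshold (adjusted p = 0.122 in limma), and gene-level values do not separate the knocked-out locus from the inducible copy. Rax, the eye-field gene behind the reporter, was at 1.12 and 0.82 FPKM without Dox and at 201.14 and 227.98 FPKM with it. Of 10 retinal progenitor markers, 8 were higher, 1 (Otx2) lower and 1 (Pax6) past no threshold. Their summed level was 433 to 459 FPKM without Dox and 1180 to 1350 with it. Rax (a mean of 0.97 FPKM without Dox), Six6 and Hmx1 were among the higher genes that reached the filter only through their Dox libraries. Such calls support nothing by themselves. The call of Otx2 was lost without any of the 4 libraries (adjusted p = 0.0804 to 0.195 in limma) and with the replicate block (0.105). The untreated organoids carried Pax6 and Otx2 but little of the markers Rax, Six6 and Hmx1. Also present without Dox, and named after their values were seen, were Sox2 (109.56 and 97.34 FPKM) and Lhx2 (26.72 and 24.3 FPKM). The same holds for Mab21l2 (12.46 and 11.49 FPKM) and Six3 (7.7 and 7.05 FPKM). Depth, fitted from the steps between low values, was 31800000 to 35000000 fragments per library.

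The dorsal pathway was examined through 18 genes for BMP ligands, their immediate targets and dorsal retinal markers, of which 15 were tested. Of these, 11 were higher and 3 lower past the threshold, against 4.44% and 4.87% of all tested genes. The median log2 fold change was 1.11 against -0.0042 over all tested genes. Smad9 and Aldh1a1 among the higher genes reached the filter only through their Dox libraries. Bmp2 among the lower genes reached it only through its untreated libraries. The calls of Smad9, Aldh1a1 and Bmp2 therefore support nothing by themselves. Bmp4, the ligand that sustains the dorsal Tbx genes, was at 6.87 and 3.42 FPKM without Dox and at 95.05 and 79.29 FPKM with it, which is 3.90 on the log2 scale with an SE of 0.272 (limma, adjusted p = 9.36e-04). Unlike the Tbx genes, Bmp4 was lower in Dox replicate 2 than in Dox replicate 1. The transcriptional targets Id1 (log2 fold change 2.55) and Msx2 (2.20) rose with it. So did the BMP-type SMAD gene Smad9 (2.18), at 0.11, 0.11, 3.54 and 4.61 FPKM. Msx1, another BMP target, named after its values were seen, was at 6.64 and 6.94 FPKM without Dox and at 4.88 and 4.39 FPKM with it and did not pass the threshold (log2 difference -0.47, adjusted p = 0.0519 in limma). The 3 lower genes were the ligands Bmp7 (-1.11) and Bmp2 (-0.88) and the ephrin gene Efnb1 (-1.02), so the BMP ligands did not move together. The call of Bmp2 was lost without untreated replicate 1, Dox replicate 1 or Dox replicate 2 (adjusted p = 0.0633 to 0.0835 in limma). Without a filter the dorsal list held 8 higher and 2 lower genes, and Efnb1 lost its call (0.0505).

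Outside the T-box family, Aldh1a1, Efnb2 and Gdf6 had lower log2 differences than the Tbx genes, while Bmp4 (3.90) stood above Tbx5 (3.25). Aldh1a1, which makes retinoic acid in dorsal retina, was at 0.15 and 0.22 FPKM without Dox and at 2.12 and 2.3 FPKM with it. This is 1.44 on the log2 scale (limma, adjusted p = 0.00276). Aldh1a1 reached the filter only through its Dox libraries, so its call supports nothing by itself. Efnb2, a dorsal ephrin named after its values were seen, went from 30.4 ± 1.10 to 55.1 ± 10.6 FPKM (SD, n = 2 each, log2 fold change 0.83, adjusted p = 0.0189 in limma), a call lost without untreated replicate 1 (0.0862) or untreated replicate 2 (0.109). Gdf6, a dorsal BMP-family ligand also named after its values were seen, was below the filter at 0.11, 0.14, 1.43 and 2.2 FPKM.

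The ventral pathway was examined through 19 genes for hedgehog signalling, retinoic acid synthesis and ventral retinal markers, of which 12 were tested. Of these, 6 were higher and 3 lower, against 4.44% and 4.87% of all tested genes. The median log2 fold change was 0.59 against -0.0042 over all tested genes. Bmpr1b, 1 of the higher genes, was at 0.67, 0.77, 1.76 and 2.01 FPKM and is named after its values were seen. It reached the filter only through its Dox libraries, so its call supports nothing by itself. The higher genes included the BMP antagonist Chrdl1, also called ventroptin (log2 fold change 1.84), the Shh co-receptor Cdon (1.43), Fgf8 (0.78) and the Shh co-receptor Gas1 (0.75). The lower genes were the Shh co-receptor Boc (-1.12), the ventral Eph receptor Ephb3 (-1.08) and Ptch1 (-0.75). The ventral counts moved with single libraries: without untreated replicate 1 or untreated replicate 2 there were 2 higher genes and without Dox replicate 2 there were 3, while the lower count was 1 without Dox replicate 1 or Dox replicate 2. Fgf8 lost its call without any of the 4 libraries (adjusted p = 0.0566 to 0.0699 in limma), Gas1 without either untreated library (0.0539 and 0.0565) and Ephb3 without either Dox library (0.0565 and 0.0546).

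Shh and its direct targets were not higher beside Vax1, Vax2 and Pax2. Shh was listed at 0.06, 0.03, 0.02 and 0.01 FPKM. Ptch1, the Shh receptor and a direct target of the pathway, was at 9.55 and 8.91 FPKM without Dox and at 4.85 and 5.35 FPKM with it (adjusted p = 0.0099 in limma). That call was lost when any of the 4 libraries was left out (adjusted p = 0.0559 to 0.086 in limma) and without a filter (0.0582), although the sign stayed negative. Gli1, another direct target, was below the filter at 1.08, 1.22, 0.54 and 0.63 FPKM, and is named after its values were seen. Aldh1a3, the retinoic acid enzyme of ventral retina, was also below the filter, at 0.23, 0.32, 0.89 and 0.9 FPKM.

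**Figure D4:**
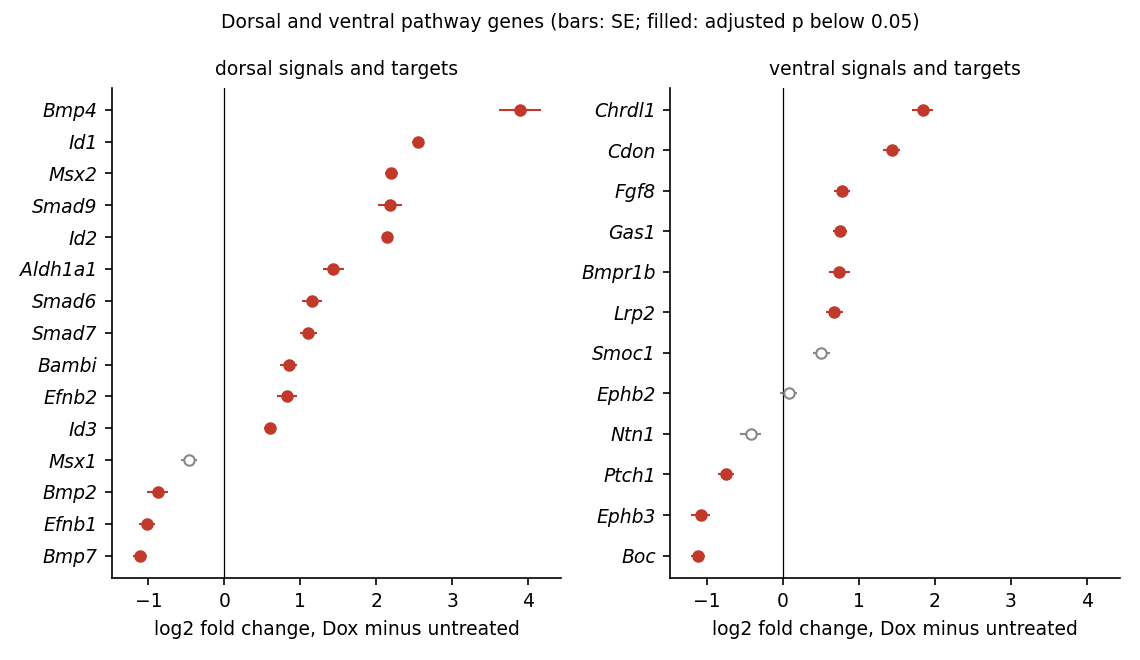
Log2 fold change (Dox minus untreated) of the tested genes of the dorsal list (15 genes) and the ventral list (12 genes); bars are standard errors from limma, and filled red points passed the adjusted threshold. Bmp4 stands highest in the dorsal list at 3.90, while in the ventral list Ptch1, Ephb3 and Boc lie to the left of 0.

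Other members of the same gene families were read beside these 6, few of them at levels that allowed a test. Of 14 other T-box genes only Mga reached the filter, at 37.22, 41.53, 36.67 and 39.41 FPKM, and it did not pass the threshold (adjusted p = 0.785 in limma). Of the others, 8 stayed below 0.5 FPKM in all libraries, Tbx4, the neighbour of Tbx2, among them at 0.01 to 0.03 FPKM. Tbx20, named after its values were seen, was below the filter at 0.01, 0, 1.39 and 1.28 FPKM, and like the members it was higher in both Dox libraries (adjusted p = 0.0168 in limma without a filter). Tbx1, also named after its values were seen, was at 0.1, 0, 0.33 and 0.53 FPKM (0.153 without a filter). Of 8 other Pax genes 3 were tested: Pax3, a gene of the dorsal neural tube, fell by 2.33 on the log2 scale (adjusted p = 4.56e-04 in limma), and Pax6 (log2 difference 0.04) and Pax7 (-0.13) did not pass the threshold. Pax3, at 0.71 and 0.47 FPKM with Dox, reached the filter only through its untreated libraries, so its call supports nothing by itself. Pax5 and Pax8, the closest relatives of Pax2, did not exceed 0.15 FPKM in any library.

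The genes around the members were compared to see whether whole chromosomal neighbourhoods were higher, a description chosen after the values were known. Within 500 kb of a member's start lay 52 protein-coding genes that are not members, of which 32 were tested. In limma 0 of the 32 were higher and 2 were lower past the adjusted threshold, while at an unadjusted p under 0.05 these counts were 4 and 5. Over all tested genes 4.44% were higher and 4.87% lower past the adjusted threshold. With only 32 genes, such counts cannot be set apart from these shares and say nothing about the neighbourhoods. The share of all genes at the unadjusted p was not computed. Wnt8b, 262.6 kb before the Pax2 start, was listed at 87.09, 85.29, 4.07 and 5.57 FPKM. Emx2, 288.3 kb before the Vax1 start, was listed at 78.18, 75.76, 11.01 and 6.26 FPKM. These 2 forebrain genes thus moved against the member beside them. Tbx3 and Tbx5 are neighbours, with starts 162 kb apart on chromosome 5, and were higher together, while Rbm19, the other tested gene of that window, had a log2 fold change of 0.03.

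**Figure D5:**
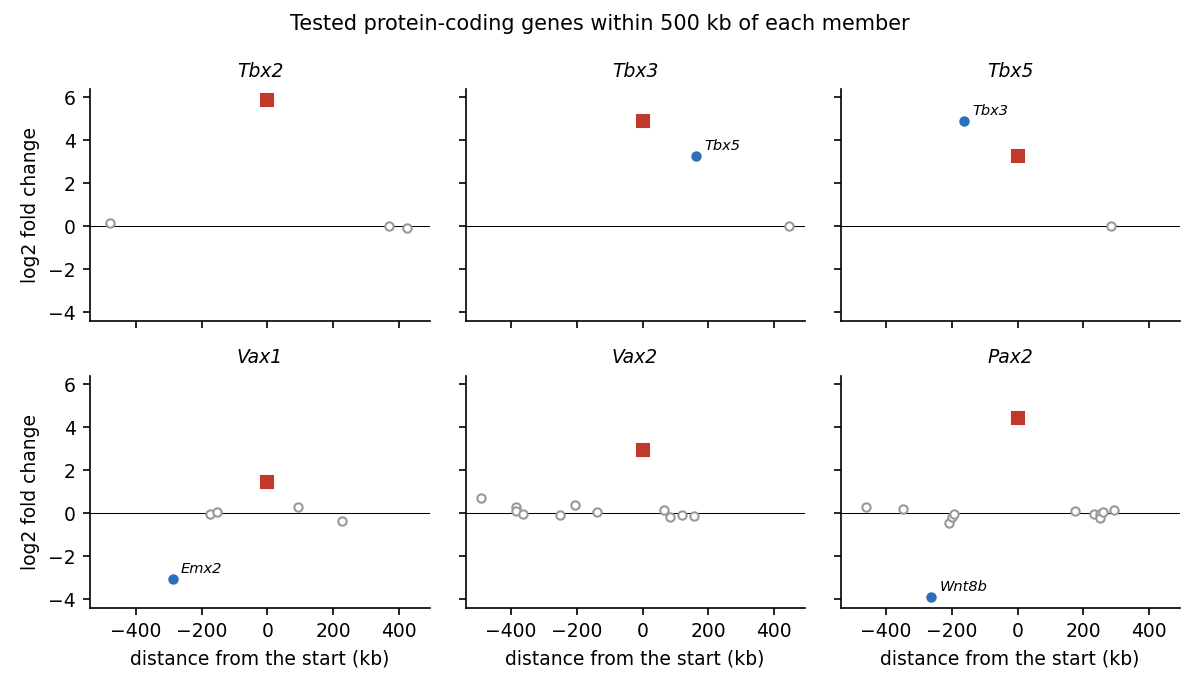
Log2 fold change (Dox minus untreated) of tested protein-coding genes against the distance of their start from each member's start in kb, positive downstream; red squares are the members, blue points genes past the threshold, open grey points the rest. Apart from the members Tbx3 and Tbx5 beside each other, the neighbours past the threshold are Emx2 beside Vax1 and Wnt8b beside Pax2, both lower; the other neighbours range from Sec31b beside Pax2 at -0.44 to Slc4a5 beside Vax2 at 0.72, named after their values were seen.

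The tested genes whose profiles over the 4 libraries were closest to each member included several eye genes. The measure is the Euclidean distance between log2(FPKM + 1) profiles after each is centred on its mean, over 4 libraries in 2 groups, so it reflects mainly the size of the difference. Closest to Tbx2 were Hmx1 (distance 0.482), Six6 (0.546) and Rax (0.922). Fzd5 was close both to Tbx3 (0.164), with Mab21l1 (0.211), and to Pax2 (0.321), followed there by Pmel (0.427) and Grem1 (0.447). Closest to Vax2 were Mitf (0.159), Slc38a8 (0.185) and Aldh1a7 (0.192), and closest to Tbx5 were Pde2a (0.168), Cdh11 (0.234) and Phlda1 (0.241). The Vax2 neighbours share its near-equal Dox libraries, with Mitf at 12.78 and 12.71 FPKM in Dox replicates 1 and 2.

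Several members are also expressed outside the eye, so markers of those tissues were read beside them. For Pax2, of 9 midbrain-hindbrain boundary genes 5 (En1, En2, Pax5, Pax8 and Gbx2) stayed below 0.5 FPKM in all libraries, Fgf8 was higher and Wnt1 fell by 2.35 on the log2 scale. Wnt1, with a Dox mean of 0.98 FPKM, reached the filter only through its untreated libraries, so its call supports nothing by itself. The summed level of that list was 18.6 to 20.0 FPKM without Dox and 11.4 to 11.8 with it. For Vax1 and Tbx3, of 10 hypothalamus and ventral forebrain genes 0 of the 4 tested were higher in limma (0 also at an unadjusted p below 0.05) and Foxd1 fell by 1.92 on the log2 scale, with a sum of 34.0 to 36.0 FPKM without Dox and 24.6 to 26.1 with it. The defining hypothalamic gene Nkx2-1 was listed at 0, 0, 0 and 0.03 FPKM. Among the telencephalon genes Emx2, Neurog2 and Emx1 fell. Neurog2 (0.3 and 0.4 FPKM with Dox) and Emx1 (0.78 and 0.6) reached the filter only through their untreated libraries, so their calls support nothing by themselves. The call of Emx1 was lost without untreated replicate 2, Dox replicate 1 or Dox replicate 2 (adjusted p = 0.0962 to 0.144 in limma). The sum over that list was 84.4 to 87.6 FPKM without Dox and 20.2 to 26.1 with it.

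For Tbx5, the 8 cardiac genes summed to 1.77 to 1.92 FPKM without Dox and 4.43 to 7.77 with it. Myl7, the 1 cardiac gene tested, did not pass the threshold (0.18, 0.41, 0.9 and 3.5 FPKM, adjusted p = 0.156 in limma), but did so without Dox replicate 1 (0.0261) and with the replicate number as a block (0.0326). The other 7 cardiac genes were below the filter, and those named here were chosen after their values were seen. Nkx2-5 did not exceed 0.17 FPKM. Gata4 was at 0.01, 0.02, 0.32 and 0.26 FPKM, Hand1 at 0.28, 0.14, 1.6 and 0.95 FPKM and Hand2 at 0.29, 0.15, 0.5 and 0.42 FPKM, each higher in both Dox libraries. In limma without a filter Gata4 passed the threshold (adjusted p = 0.0474), while Hand1 (0.133) and Hand2 (0.244) did not. The cardiac sum was higher in Dox replicate 2, as Tbx5 was, and its part in the Tbx5 difference was not tested. For Pax2 and surface tissues, of 9 genes 0 of the 5 tested otic, renal and surface ectoderm genes passed the threshold in limma (1 was lower at an unadjusted p below 0.05), with sums over the 9 of 52.5 to 57.5 FPKM without Dox and 55.7 to 62.8 with it. Krt8 and Krt18 made up most of these sums. Below the filter, and named like Krt8 and Krt18 after their values were seen, the otic genes Dlx5 (0.09, 0.05, 1.06 and 0.95 FPKM) and Gata3 (0.21, 0.18, 0.86 and 0.97 FPKM) were higher in both Dox libraries, with adjusted p = 0.0248 and 0.0385 in limma without a filter. Their part in the Pax2 difference was not tested. For Tbx3, the 7 pluripotent cell genes summed to 67.9 to 70.9 FPKM without Dox and 50.5 to 73.3 with it, and Klf4 was their only called gene (log2 fold change -0.71), a call lost without any of the 4 libraries (adjusted p = 0.088 to 0.127 in limma). Klf4, at 0.73 and 0.95 FPKM with Dox, reached the filter only through its untreated libraries, so its call supports nothing by itself. Pigment epithelium arises from the same vesicle, and of its 7 genes 3 were tested and higher: Pmel (log2 fold change 4.21), Dct (3.09) and Mitf (2.82). Dct (0.09 and 0.14 FPKM without Dox) and Mitf (0.93 and 0.97) reached the filter only through their Dox libraries, so their calls support nothing by themselves. Of the other 4, Tyrp1 was at 0.09, 0.09, 0.62 and 0.64 FPKM, and Tyr, Rpe65 and Mlana did not exceed 0.13 FPKM, all 4 named after their values were seen. The sum over the list was 2.39 to 2.54 FPKM without Dox and 61.4 to 61.9 with it.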

How the data were processed

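The authors deposited FPKM values with 2 decimals in a single gene table, in which each library has its own column. The submitters' processing notes name STAR, Cuffdiff and mm10; versions, annotation release, filters and strand setting are not given in the sources used here. Values were transformed to log2(FPKM + 1), which understates the change of low genes. Genes whose mean reached 1 FPKM entered a fit in limma 3.58.1 (R 4.3.3, eBayes with intensity trend, 4 libraries, no covariate), two-sided, with Benjamini-Hochberg adjustment over all 13931 tested genes and a threshold of 0.05. The procedure was tested on simulated data.

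The members and lists were chosen with earlier results of these data known. Named are the members, Mettl3, Rax and the reporter, up to 4 called genes in each direction per list, a few pathway genes, the 3 tested genes closest in profile to each member, and overlapping or antisense genes; others are marked in the text. Some genes picked by these rules are not reported here, though they stay in the counts.

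Depth was fitted with Python 3.11.15 from genes of 1 transcript, whose low values step by 1 fragment: 80.5% to 84.5% of low values came out whole within rounding, against 17.6% to 19.4% by step size alone. Fragments per member use the longest GENCODE M21 transcript (GRCm38) and are approximate. Loci come from GENCODE M21 by gene identifier.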

Additional observations from a re-analysis of the deposited data

How the results depend on the processing

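Each of the 5 tested members was higher past the threshold in every fit that tested it, with adjusted p-values up to 0.0191 in limma, and no member was lower. With a minimum mean of 5 FPKM, which leaves Tbx5 and Vax2 untested, 3 members were higher. In the fits with a filter these calls support nothing by themselves, since the members reached it only through their Dox libraries. Leaving out each library in turn gave 5 members higher in each fit and log2 fold changes of 5.70 to 6.09 for Tbx2, 4.65 to 5.12 for Tbx3, 3.06 to 3.43 for Tbx5, 2.81 to 3.02 for Vax2 and 4.16 to 4.70 for Pax2. In these fits a lone library is assumed to vary like the other group. The size of a low gene's fold change depends on the pseudocount: Vax1 had a log2 difference of 3.85 with 0.1 and 0.445 with 5, against 1.45. In the ventral list 2 genes were higher and 1 lower without a filter, and 3 were higher with a minimum mean of 5 FPKM. Leaving out each library gave 2 to 4 higher and 1 to 2 lower there, against 6 and 3, and 8 to 10 higher and 2 to 3 lower in the dorsal list. A replicate block (the replicate number as a term) left 5 members, 11 dorsal and 6 ventral genes higher. It left 3 dorsal and 3 ventral genes lower, in both directions as without it. Of the named list genes read in this fit, which were not all of them, only Otx2 and Myl7 changed their calls. Over all genes 532 were higher and 602 lower against 619 and 678. Equal numbers do not mark a shared origin in the labels (correlation of deviations -0.043 over genes). With 2 libraries per group and 0 to about 33.9 fragments per member without Dox, ratios are imprecise. Of the genes past no threshold, Mettl3, Mga, Pax6, Pax7, Myl7 and Rbm19 were read with a library left out, and others such as Krt8 were not. Of those read, 3 changed sign. The ranges were -0.124 to 0.03 for Mga (positive without untreated replicate 2 or Dox replicate 1) and -0.012 to 0.091 for Pax6 (negative without untreated replicate 2 or Dox replicate 2). For Rbm19 the range was -0.026 to 0.08 (negative without Dox replicate 2).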
